A study of Mus musculus with 4 samples.

Results

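The beta-defensin genes and 8 genes of other secreted defence proteins were followed in CD49f+ CD34+ mouse skin epithelial cells, after serial culture (15p) and as first sorted (0p). The members were all non-control probes whose gene name on the array begins with Defb and a number, or is Lcn2, Slpi, Camp, Saa1, Saa2, Saa3, Pglyrp1 or Lyz2. This gave 57 probes of 52 genes, of 39429 probes of 31896 genes on the array, and 44 of the 52 genes were beta-defensins. The 15p RNA came from CD49f+ CD34+ cells sorted at the end of the 15th 10-day culture in a row, all with Wnt-3a and on collagen. The 0p RNA came from CD49f+ CD34+ cells sorted from primary skin epithelial cells of adult C3H/HeN mice, the source of both RNAs, and Wnt-3a is given as the treatment of both, although the labels do not settle whether 0p cells were cultured before their RNA was taken. Each of 4 two-colour arrays carried both RNAs, in 2 biological replicates, each run with 15p in Cy5 (here the forward array) and again with 15p in Cy3 (the swapped array). The labels do not say that the replicates came from separate animals or cultures, so p-values cover only the spread between them. The comparison asks how far transcript levels differ between 15p and 0p cells.

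Beta-defensins are short cationic peptides held together by disulphide bonds that disrupt microbial membranes, and several also attract immune cells. Cathelicidin, encoded by Camp, acts in the same way, while lipocalin 2 starves bacteria of iron by binding their siderophores and SLPI inhibits leukocyte serine proteases. In skin these proteins are made by keratinocytes, many of them at higher levels after wounding or exposure to cytokines, and many mouse beta-defensins are known instead from the epididymis. Camp, Pglyrp1, Lcn2 and Lyz2 are also products of neutrophils or macrophages.

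Results turn on the probes of 7 genes that could be measured, and those of 6 are shown here 5′ to 3′ as in the array files, with their second probes where the array has 1. Positions are given as the files list them (mouse build mm9), and that of the second Camp probe spans 50 of its 60 bases. Capitals mark the run of 40 bases that both Camp probes share.
Camp, chr9:109749911-109749970, minus strand: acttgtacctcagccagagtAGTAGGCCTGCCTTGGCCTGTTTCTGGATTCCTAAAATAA
Camp, second probe, chr9:109749901-109749950, minus strand: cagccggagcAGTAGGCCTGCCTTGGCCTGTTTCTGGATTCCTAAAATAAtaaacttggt
Defb14, chr8:19195152-19195211, plus strand: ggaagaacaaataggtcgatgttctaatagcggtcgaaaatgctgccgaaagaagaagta
Defb28, chr2:152345796-152345855, plus strand: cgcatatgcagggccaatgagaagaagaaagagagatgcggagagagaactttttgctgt
Defb28, second probe, chr2:152345983-152346042, plus strand: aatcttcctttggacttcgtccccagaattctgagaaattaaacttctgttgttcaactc
Lcn2, chr2:32240199-32240258, minus strand: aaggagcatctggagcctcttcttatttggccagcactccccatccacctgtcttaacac
Saa1, chr7:53996070-53996129, minus strand: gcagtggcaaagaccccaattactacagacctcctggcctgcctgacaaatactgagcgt
Slpi, chr2:164179849-164179908, minus strand: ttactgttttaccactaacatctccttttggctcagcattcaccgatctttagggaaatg
Probes of different member genes shared at most 14 bases in a row, and those of the close copies Saa1 and Saa2 at most 5. No member probe shared 20 or more bases in a row with any of 39372 other probes. Such runs miss probes that differ only at scattered bases. Those of Defb15 and Defb34 shared 12 bases in a row but matched over most of their length. Cross-hybridisation between members was not tested.

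Most members were not measurable in either RNA. A gene is called above background here where the scanner software marks a probe as well above background, and it was tested where 1 of its probes was so marked on all 4 arrays in 15p RNA or on all 4 in 0p RNA. By this rule 7 of 52 member genes were tested (13.5%), against 54.5% of all genes on the array. At least 1 array in either RNA marked 24 member genes (46.2%), against 72.2% of all genes. In 15p RNA 7 member genes were above background on all 4 arrays, against 6 in 0p RNA, where all genes on the array had shares of 53.2% and 53.9%. Of the 44 beta-defensins, 3 were tested, 15 were above background on some arrays and 26 on none. Of the 8 other genes, 4 were tested, 2 were above background on some arrays and 2 on none. Low cell numbers of a type that expresses a gene and low RNA per cell cannot be told apart in such bulk samples.

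**Figure D1:**
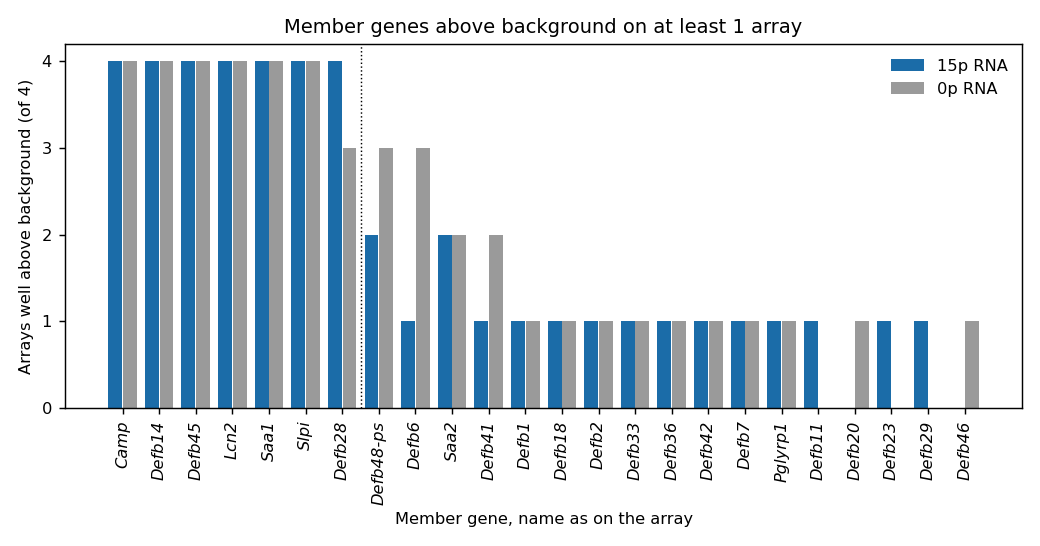
Number of arrays, of 4, on which each member gene had a probe well above background, in 15p RNA (blue, left bar) and 0p RNA (grey, right bar), for the 24 genes above it at least once. The 7 genes left of the dotted line were tested, and of the other 17 none was above background on all 4 arrays in either RNA.

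Among the genes with known roles in skin defence, Defb14, the mouse counterpart of human beta-defensin 3, was above background on all 4 arrays in both RNAs. Defb1, a beta-defensin that epithelia make without stimulation, was above background on 1 array in 15p RNA and on 1 in 0p RNA. Defb3 and Defb4, both known as beta-defensins that infection induces, were above background on none. Defb6 was above background on 1 array in 15p RNA and on 3 in 0p RNA. Lyz2, the lysozyme of macrophages, and the acute phase gene Saa3 were above background on none. Pglyrp1, which encodes a peptidoglycan-binding protein of neutrophils, reached it on 1 array in each RNA, and Saa2, an acute phase apolipoprotein gene, on 2.

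The other beta-defensins were marked on few arrays. The probe named Defb48-ps in the files, now assigned to Gm21944, was above background on 2 arrays in 15p RNA and 3 in 0p RNA, and Defb41 on 1 and 2. Defb2, Defb7, Defb18, Defb33, Defb36 and Defb42 were above background on 1 array in each RNA. Defb11, Defb23 and Defb29 were above background on 1 array in 15p RNA and on 0 in 0p RNA, and Defb20 and Defb46 on 0 in 15p RNA and 1 in 0p RNA. The genes above background on no array were Lyz2, Saa3, Defb3, Defb4, Defb5, Defb8, Defb9, Defb10, Defb12, Defb13, Defb15, Defb19, Defb21, Defb22, Defb25, Defb26, Defb30, Defb34, Defb35, Defb37, Defb38, Defb39, Defb40, Defb43, Defb44, Defb47, Defb48 and Defb50. No ratio is given for members that were not tested.

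The marks of most partly detected members came from 1 array. Of 17 such genes, 16 were above background on the swapped array of replicate 2, and 12 on that array alone. On it 23 of 57 member probes were above background in 15p RNA and 22 in 0p RNA. On the other 3 arrays the counts were 8 to 10 in 15p RNA and 8 to 12 in 0p RNA. All probes moved the same way: on that array 65.1% of spots were above background in 15p RNA and 68.3% in 0p RNA, against 55.5% to 59.3% and 57.0% to 59.8% on the others. Without that array, those 12 genes would join the 28 that were above background on none.

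Raw intensities placed most member probes near the upper end of the negative controls. Set against the 95th percentile of negative controls of the same array and dye, the 50 member probes that did not enter the test had a median intensity of 0.991 of that level in 15p RNA and 1.03 in 0p RNA, with highest values of 1.71 and 2.17. On the swapped array of replicate 2, 82.5% of member probes exceeded this level in 15p RNA and 84.2% in 0p RNA. On the other arrays 43.9% to 49.1% did so in 15p RNA and 42.1% to 64.9% in 0p RNA. Of all probes, 89.4% and 90.6% exceeded it on that swapped array, and 69.6% to 78.3% on the others. Slpi stood at 122 to 323 times the level in 15p RNA and 130 to 327 times in 0p RNA. These values split by dye, with 261 to 327 in Cy5 and 122 to 172 in Cy3, whichever RNA carried it. The other 6 tested probes stood between 1.22 and 7.12 times the level in 15p RNA and between 0.975 and 6.98 times in 0p RNA.

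**Figure D2:**
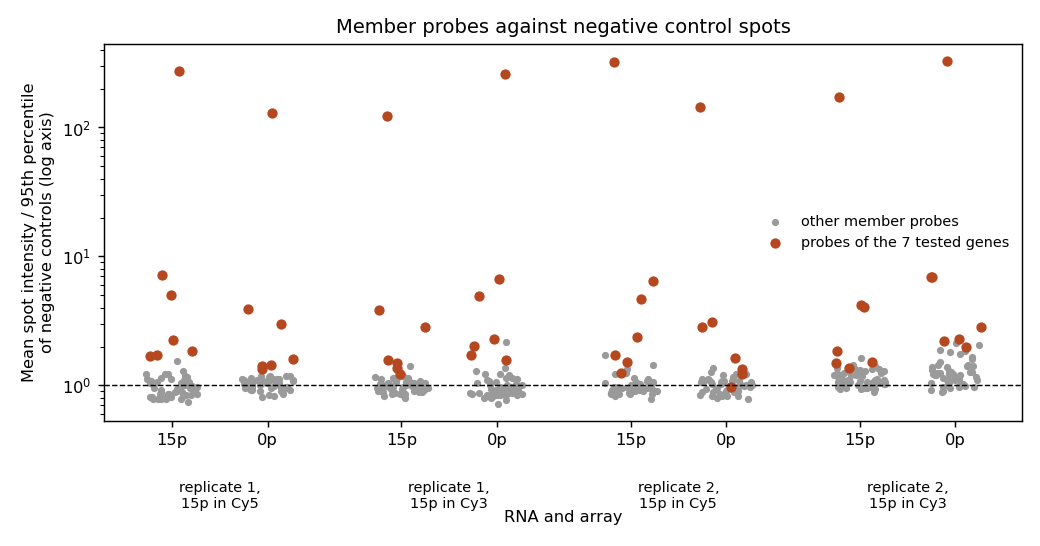
Mean spot intensity of the 57 member probes divided by the 95th percentile of negative control spots of the same array and dye (log axis, dashed line at 1), by array and RNA. Orange points are the 7 tested probes, 1 for each tested gene, and grey points the other 50, second probes of Camp, Defb28 and Defb45 included, which lie close to 1, higher on the swapped array of replicate 2. The orange point above 100 in every column is Slpi.

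The tested beta-defensins lay on chromosomes 2 and 8. On chromosome 8, 1 of 23 beta-defensin genes was tested (Defb14) and 16 were above background on no array. On chromosome 2, 2 of 11 were tested (Defb28 and Defb45) and 5 were above background on none. None was tested among 5 genes on chromosome 14, 3 on chromosome 1 and 2 on unplaced chromosome 8 sequence. The 27 member probes above background at least once had a median GC content of 45%, against 40% for the other 30 and 41.7% for all probes.

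Second probes did not always give the same detection. Of the Camp probes, 1 was above background on 4 arrays in each RNA and the other on 3 in 15p RNA and 4 in 0p RNA. The Defb28 probe used for the test was above background on 4 arrays in 15p RNA and 3 in 0p RNA, and the second on 2 and 0. For Defb45 the counts were 4 and 4 on the tested probe and 0 and 0 on the second. The Defb45 values below therefore rest on a probe whose companion was not above background.

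The 2 arrays of a dye-swapped pair did not mirror each other. Over all tested genes their ratios of 15p over 0p had a correlation of -0.55 in replicate 1 and -0.40 in replicate 2, a description across genes that share arrays. The direction of every ratio follows the dyes as labelled, and a dye effect and a swap that went against its label cannot be told apart from these values.

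None of the 7 tested members was called higher or lower in 15p cells, and their mean log2 ratios of 15p over 0p ran from -0.050 to 0.088. With the swapped arrays read as if their dyes had not been exchanged, which leaves any dye effect in, the means ran from -0.16 (Slpi) to 0.14 (Defb28), and Slpi, Defb45 (0.032) and Saa1 (-0.028) changed sign. Over all 17376 tested genes limma also called 0 (0%, Benjamini-Hochberg adjusted p under 0.05; lowest adjusted p = 0.752). Unadjusted p-values were under 0.05 for 0 of 7 members and for 1087 genes in all (6.26%). With the filter on dim probes dropped, they were so for 4 of 52 members (7.69%) and 6.95% of all genes, and no member passed. Of the 7 ratios, 5 were above 0 and 2 below, with a median of 0.030, beside 0.0025 for all tested genes, whose ratios had an SD of 0.076. The 95% interval of each member lay within 0.23 of 0 on the log2 scale, a 1.17-fold difference, on values that include an offset of 50, which draws ratios of dim probes toward 0. Within arrays, each of the 7 had the higher normalised intensity in 15p RNA on 2 or 3 of 4 arrays.

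Slpi, the serine protease inhibitor of mucosal and skin secretions, was the only member far above the negative controls. Its normalised intensity in 15p RNA was 10240.4 and 11363 for replicate 1, the forward array given before the swapped one throughout, and for replicate 2 it was 14093 and 16085. In 0p RNA of the same arrays it was 11361, 10312, 15355 and 13858. On both forward arrays the 15p value was the lower, and on both swapped arrays the higher, while replicate 2 was brighter than replicate 1 in both RNAs. The log2 ratios were -0.15 and 0.14 in replicate 1 and -0.12 and 0.22 in replicate 2, which averaged 0.020 ± 0.036 (SD, n = 2; 95% interval -0.10 to 0.14; limma adjusted p = 0.947).

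**Figure D3:**
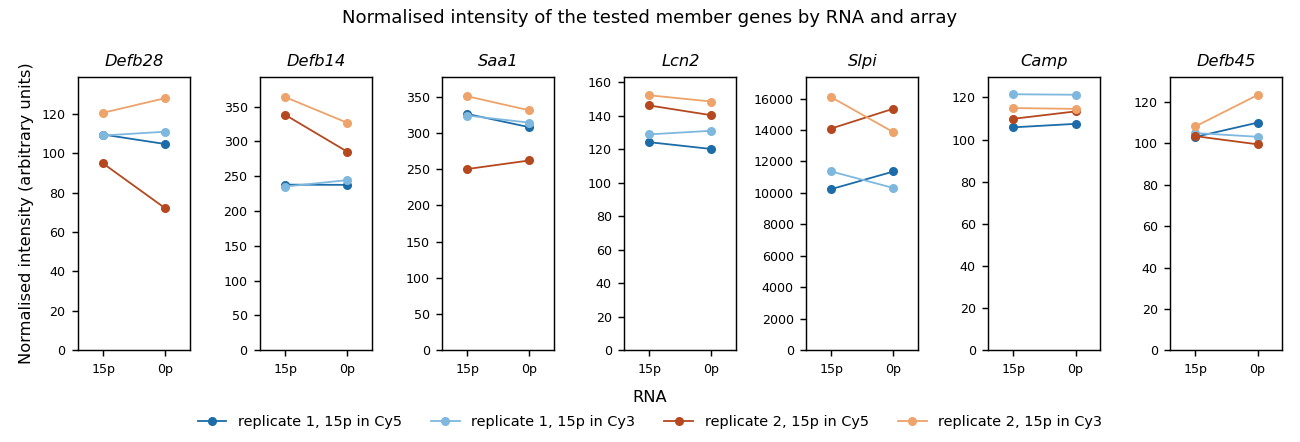
Normalised intensity (arbitrary units, each panel starting at 0) of the 7 tested member genes in 15p RNA (left) and 0p RNA (right), with 1 line for each array. Lines slope both ways in every panel, and in the Slpi panel they slope up on forward arrays (15p in Cy5) and down on swapped arrays (15p in Cy3). Panels differ in scale and levels cannot be set against each other.

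Defb14 had normalised intensities of 238, 235, 338 and 364 in 15p RNA, against 238, 244, 285 and 327 in 0p RNA, in the order of replicate 1 and then 2. The RNAs were close in replicate 1, and 15p was higher on both arrays of replicate 2. The log2 ratio was -0.027 in replicate 1 and 0.20 in replicate 2, a mean of 0.087 ± 0.16 (SD, n = 2; 95% interval -0.058 to 0.23; adjusted p = 0.807). The difference between the replicates was larger than the mean, so the 2 replicates give no common direction.

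Defb28, a beta-defensin gene of the chromosome 2 cluster, entered the test through its 15p RNA alone, being above background on 3 of 4 arrays in 0p RNA, and it was not tested where both RNAs had to pass. Its log2 ratios were 0.065 and -0.025 for replicate 1, then 0.40 and -0.087 for replicate 2, with a mean of 0.088 ± 0.096 (SD, n = 2; 95% interval -0.042 to 0.22; adjusted p = 0.790). Most of the mean came from the forward array of replicate 2, where normalised intensity was 94.9 in 15p RNA and 72.1 in 0p RNA. That 0p value was the lowest of all 8 and was not above background, so the ratio of 0.40 on that array, and the mean that holds it, rest on a value that was not measured well. On that array the SD of log2 ratios over all tested genes was 0.29, against 0.13 to 0.14 on the other 3. Leaving out that array gave a Defb28 ratio of 0.0046. Leaving out the forward array of replicate 1 gave 0.17, which passed (limma adjusted p = 0.0438), in a fit that called 18% of all tested genes and 1 of 7 members. That fit took the 3 arrays left as single values with a dye term. Arrays of a dye-swapped pair thus counted separately, unlike in the reported test on 2 replicate values. It estimated infinite prior degrees of freedom, which gives every gene 1 common spread.

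Defb45, another gene of the chromosome 2 cluster, had a mean log2 ratio of -0.050 ± 0.023 (SD, n = 2; 95% interval -0.17 to 0.070; adjusted p = 0.851). By array the log2 ratios were -0.093 and 0.025 in replicate 1 and 0.056 and -0.19 in replicate 2. Normalised intensity was 103, 105, 104 and 108 in 15p RNA and 110.1, 103, 99.6 and 123 in 0p RNA. Signs differed between the arrays of each pair, and in opposite order in the 2 replicates.

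Camp, which encodes the cathelicidin precursor, was close to 0 on every array. Normalised intensity was 106, 122, 109.8 and 115 in 15p RNA, against 107.5, 121, 113 and 115 in 0p RNA. The log2 ratios were -0.022, 0.0028, -0.045 and 0.0051, with a mean of -0.015 ± 0.0073 (SD, n = 2; 95% interval -0.13 to 0.11; adjusted p = 0.961). The SD covers the replicate means only and leaves out the difference within each dye-swapped pair. Processed signals of the scanner software, which carry no offset, gave Camp -0.12, -0.047, 0.63 and 0.063 on the same arrays.

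Lcn2, whose product binds bacterial siderophores, had normalised intensities of 124, 129, 146 and 152 in 15p RNA and 120.0, 131, 140.2 and 148 in 0p RNA. Its 15p value was higher on 3 of 4 arrays, with log2 ratios of 0.048, -0.024, 0.059 and 0.036. The mean was 0.030 ± 0.025 (SD, n = 2; 95% interval -0.091 to 0.15; adjusted p = 0.913). Saa1, an acute phase apolipoprotein gene, had 326, 324, 250.2 and 351 in 15p RNA and 308, 314, 262 and 331 in 0p RNA. It too was higher in 15p RNA on 3 of 4 arrays, and the forward array of replicate 2 was the dimmest in both RNAs. The Saa1 log2 ratio averaged 0.036 ± 0.040 (SD, n = 2; 95% interval -0.086 to 0.16; adjusted p = 0.891).

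**Figure D4:**
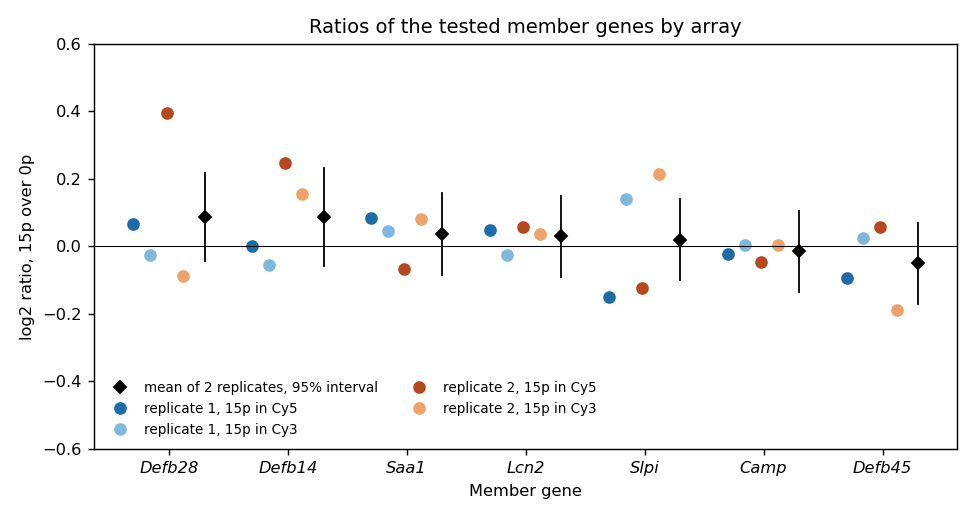
Log2 ratio of 15p over 0p for the 7 tested member genes on each array (coloured points), with the mean of 2 replicates and its 95% interval from limma (black). All 7 intervals include 0, and the point farthest from 0 is Defb28 on the forward array of replicate 2 (0.40).

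Signs across the 4 arrays were read both ways. No member had the same sign of 15p over 0p on all 4 arrays (0 of 7), against 6.78% of all tested genes. Camp, Defb28 and Slpi, 3 of 7, had the same sign of Cy5 over Cy3 on all 4 arrays, against 32.3% of all tested genes. For Slpi the mean of Cy5 over Cy3 was -0.16 on the log2 scale.

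With the software's processed signals, which carry no offset, mean log2 ratios were 0.20 ± 0.18 for Defb28, 0.12 ± 0.21 for Defb14, 0.13 ± 0.30 for Camp and -0.14 ± 0.052 for Defb45. They were 0.061 ± 0.11 for Lcn2, 0.068 ± 0.012 for Saa1 and 0.032 ± 0.041 for Slpi (SD, n = 2 each). Only Camp changed sign, through 0.63 on the forward array of replicate 2, and 0 of 7 members passed (limma, lowest adjusted p = 0.833).

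Receptors and signalling proteins known to induce defence peptides in keratinocytes were mostly measurable and none was called. Of 28 such genes, 23 were tested, 15 with ratios above 0 and 8 below, and their median was 0.035; 0 of 23 had an unadjusted p under 0.05. Among those the naming rule takes, Ifngr1, a receptor subunit for interferon gamma, had a log2 ratio of 0.11 ± 0.092 and Cebpb, a transcription factor of acute phase genes, 0.096 ± 0.10. Il17ra, the receptor of interleukin 17, had -0.089 ± 0.16 and Tlr4, the receptor of bacterial lipopolysaccharide, -0.081 ± 0.0041 (SD, n = 2 each; limma adjusted p from 0.752 to 0.804). By array the Tlr4 ratios were -0.16, -0.0030, -0.33 and 0.17. SDs here and in the lists below leave out such differences within a dye-swapped pair. Tlr1, Tlr5, Tlr6 and Il1rl2 were above background on no array.

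Of 18 cytokines known from skin inflammation, 8 were tested, 4 with ratios above 0 and 4 below, with a median of 0.0026. Il22 had -0.12 ± 0.017, the alarm cytokine Il1a -0.11 ± 0.11, Il24 -0.077 ± 0.11 and Il19 0.044 ± 0.043, and none passed (0 of 8 with an unadjusted p under 0.05). Il1b, Il6, Tnf, Il17a and Il17c, among others, were above background on no array.

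Other secreted defence and acute phase genes had 13 of 32 tested, 10 above 0 and 3 below, with a median of 0.048. S100a9, a subunit of calprotectin, had 0.25 ± 0.043 and its partner S100a8 0.090 ± 0.0016, and both were above 0 on all 4 arrays. Orm1, an acute phase glycoprotein gene, had 0.074 ± 0.044 and Rnase4, a secreted ribonuclease gene, -0.20 ± 0.27. None passed over all genes (limma adjusted p from 0.752 to 0.806), and 3 of the 13 had an unadjusted p under 0.05. Over all the lists, those of cell type markers included, 10 of 79 tested genes did, beside 6.26% of all tested genes, and none passed.

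Of 24 receptors, processing enzymes and protease targets of the member proteins, 9 were tested and 0 called, 7 above 0 and 2 below. Their median was 0.0020, and 1 had an unadjusted p under 0.05, beside 6.26% of all tested genes. Slc22a17, which encodes a receptor of lipocalin 2, had 0.12 ± 0.0081, with 0.057, 0.17, 0.27 and -0.017 by array. Scarb1, a lipoprotein receptor, had 0.096 ± 0.089. Klk8, a skin kallikrein protease gene, had 0.093 ± 0.13 and Egfr, the epidermal growth factor receptor, -0.10 ± 0.15. Elane, whose product is the elastase that SLPI inhibits, was above background on all 4 arrays in both RNAs. Ccr6, a receptor for beta-defensins, and the formyl peptide receptor Fpr1 were each above background on 1 array in each RNA, and Fpr2 on none.

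Markers of neutrophils and macrophages, which also express several members, were read beside them. Of 23 on the array, 11 were tested, 8 above 0 and 3 below, with a median of 0.025. None was called, and 1 of 11 had an unadjusted p under 0.05, beside 6.26% of all tested genes. Besides S100a8 and S100a9, Csf3r had 0.067 ± 0.30 and Fcer1g -0.060 ± 0.095. Ly6g and Mpo of neutrophils and Mpeg1, C1qa and Cybb of macrophages were the 5 above background on no array. The 11 above it on all 4 in both RNAs were S100a8, S100a9, Itgam, Itgb2, Csf3r, Elane, Cd68, Csf1r, Cd14, Fcer1g and C1qb. Those between were Ptprc, on 3 arrays in each RNA, and Ngp, Ltf, Lyz1, Adgre1, Tyrobp and Spi1, on 0 to 2. The part of such cells in the members' levels was not tested.

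Of 12 markers of basal and bulge keratinocytes, 9 were above background on all 4 arrays in both RNAs, Krt5, Krt14 and Trp63 included, while Lgr5 and Lhx2 were above it on none and the sort marker Cd34 on 0 arrays in 15p RNA and 1 in 0p RNA. The tested ones included Krt14 (0.19 ± 0.12), Krt15 (0.17 ± 0.033), Col17a1 (0.083 ± 0.0036) and Sox9 (-0.38 ± 0.60). Of the 9 tested, 0 passed and 3 had an unadjusted p under 0.05 (6.26% of all tested genes). Those 3 were Krt14, Krt15 and Sox9, each with its largest ratio on the forward array of replicate 2. There Krt14 had 0.73, Krt15 0.48 and Sox9 -1.56, against -0.18, -0.093 and -0.053 on the swapped array. Krt15 had the same sign of Cy5 over Cy3 on all 4 arrays. Of 7 suprabasal markers 5 were tested, 1 had an unadjusted p under 0.05 and 0 passed, with Tgm1 at 0.20 ± 0.13, Lor at 0.076 ± 0.078, Tgm3 at -0.051 ± 0.091 and Ivl at -0.025 ± 0.0033. All 4 stress keratins were tested, 2 had an unadjusted p under 0.05 and 0 passed. Krt6a was at 0.16 ± 0.035, Krt16 at 0.14 ± 0.052, Krt17 at 0.083 ± 0.12 and Krt6b at -0.089 ± 0.029 (SD, n = 2 each, limma). In replicate 2, Krt6a had 0.47 on the forward and -0.092 on the swapped array, and Krt16 0.48 and -0.13.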

How the data were processed

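Mean spot and local background intensity in each dye were deposited as scanner files, extracted with Agilent Feature Extraction 10.7.3.1 per the file headers and the submitters' processing notes. Per the file headers, the deposited files also hold a processed intensity, corrected for background and dye, and its log10 ratio, which is Cy5 over Cy3. The series' value table repeats it within 0.0045 (column medians 0, direction not turned for the dye swap). Other deposited columns are flags. Per the labels' protocols, 200 ng of total RNA was labelled and 825 ng of cRNA hybridised. The number of arrays limits precision.

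In R 4.3.3 with limma 3.58.1 and data.table (version 1.17.8), intensities were corrected by normexp (offset 50) and loess within arrays, with control spots at weight 0. Non-uniform spots were left out (2 to 13 an array), and 0 spots were saturated. Spots of a probe were averaged, and 21660 probes above background on all 4 arrays in either RNA were kept. The brightest probe stood for a gene. Normalised intensity includes the offset. Log2 ratios were turned to 15p over 0p by the dyes in the labels, dye-swapped pairs of the same RNAs averaged, and 2 replicate values tested two-sided with lmFit and eBayes (prior degrees of freedom 8.71, residual 1), adjusted over all genes. The test was tested on simulated data. Symbols come from RefSeq (GRCm38.p6) by transcript accession (26055 probes, all 57 members).

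Same-numbered arrays' deviations had a correlation of -0.26 across genes; the pairing comes from the labels. The 2 replicates were on different slides, and slide cannot be told apart from replicate. Members and lists were chosen with earlier results of these data known. The naming rule takes all tested members, members above background at least once, and up to 4 genes a list, those with 1 sign on all 4 arrays first, then by size. The probe sequences of Defb45 are not reported here. Alternatives are given at the end of the text.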

Additional observations from a re-analysis of the deposited data

How the results depend on the processing

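Ratios were recomputed under 19 alternatives. Crossed pairing, leaving out outlier spots, the replicate block as a fixed term and detection without 1 array were added after seeing the data, the block because a random one could not be estimated from 4 arrays. The replicate block gave the same contrast as the reported fit (0 members and 0 genes called, Defb28 0.088) and changed no call. Lcn2 and Defb28 stayed above 0 wherever they were tested, with 0.0099 to 0.061 over 19 alternatives and 0.0046 to 0.20 over 18. Many of these alternatives, such as crossed pairing and separate channels, leave the mean ratio of these genes as reported. The value table nearly repeats the processed signals. The number of alternatives is therefore no measure of stability. Camp turned to 0.13 with processed signals, 0.13 with the value table and 0.0020 without background subtraction, and passed in none of these (limma adjusted p from 0.850 to 0.992). Leaving out 1 array or replicate in turn gave -0.021 to -0.0093 for Camp, -0.027 to 0.20 for Defb14, 0.0046 to 0.17 for Defb28, -0.10 to 0.0033 for Defb45, 0.012 to 0.047 for Lcn2, -0.0016 to 0.074 for Saa1 and -0.0049 to 0.046 for Slpi; without a whole replicate there is no test. Fits without 1 array took the remaining arrays singly with a dye term, so arrays of a pair counted separately, unlike in the reported test. Between 0 and 1 members were called in them, and between 0 and 3119 genes. The 3119 came on leaving out the forward array (15p in Cy5) of replicate 1 and 88 on leaving out that of replicate 2, both with infinite prior degrees of freedom. Crossed pairing called 60 genes and 0 members, and the fit without a filter on dim probes 1 gene and 0 of 52 members. The 4 members with an unadjusted p under 0.05 in that fit were Defb46, Defb11, Defb6 and Defb30, named after their values were seen, none of them above background on all arrays. Separate channels, with 64 genes at an unadjusted limma p under 0.05, and the dye term without a block, with 323, also called 0 genes. Asking for at least 1 array in place of 4 raised the detected members to 22 in 15p RNA and 21 in 0p RNA. Leaving out 1 array gave 7 in 15p RNA each time and 6 to 8 in 0p RNA. The low signal of 45 member genes limits what these arrays can show about them.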
